A study of Mus musculus with 42 samples.

Results

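The subject is a set of 10 genes whose transcripts mark dividing cells, Top2a, Mki67, Ccna2, Ccnb1, Ccnb2, Birc5, Cdc20, Aurkb, Mcm5 and Rrm2, out of 27597 gene symbols or names on the array. The probes were found by the gene name that the array design gives. The 10 genes had 15 probes, and for the genes with several (Top2a, Mki67 and Ccnb1) the brightest probe over all arrays stood for the gene. The study compared female C57BL/6 mice that were wild-type (Wt) or heterozygous for Akt1 (Akt1+/-), which carry 1 intact copy of Akt1, a kinase of insulin and IGF1 signaling. RNA of liver, skeletal muscle (quadriceps) and visceral fat was hybridised to 42 one-colour arrays, so that each tissue had groups of 3 arrays at 8 weeks and of 4 arrays at 35 weeks for either genotype. The labels give the older age as 35 weeks, while the study itself describes arrays of an older age and of 3 mice in a group, so that it is not known whether 4 arrays are 4 mice. All mice share the strain and the sex. Each array held 1 sample, the whole tissue was extracted, and fewer dividing cells and less of a transcript per cell cannot be told apart in such samples.

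A cell that divides first copies its DNA in S phase and then separates the copies in mitosis, and most of the machinery is transcribed only for that purpose. Mcm5, a subunit of the helicase that opens DNA at origins, and Rrm2, the regulated subunit of the ribonucleotide reductase that supplies deoxynucleotides, serve S phase. The cyclins Ccna2, Ccnb1 and Ccnb2 activate Cdk1 on the way into mitosis, Top2a untangles the copied DNA, Aurkb and Birc5 sit in the chromosomal passenger complex, Cdc20 activates the anaphase-promoting complex, and Mki67 coats mitotic chromosomes. Adult liver parenchyma and muscle fibres seldom divide. In visceral fat the dividing cells of an adult mouse lie mainly among preadipocytes, macrophages and other stromal cells.

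Levels are the log2 of the background-subtracted intensity minus the 75th percentile of the array, so that 0 is that percentile, and they were compared only within a probe. The 75th percentile was between 282 and 840 intensity units, and 57.2 to 69.2% of the spots of an array were well above background. By tissue the percentile was 282 to 447 in liver, 310 to 468 in muscle and 497 to 840 in fat. Akt1 itself was lower in every Akt1+/- array than in every Wt array of the same tissue and age, by 0.50 to 0.72 on the log2 scale. The summed level of hepatocyte markers was 10.64 to 11.15 in liver, that of muscle fibre markers 11.57 to 12.03 in muscle, and that of adipocyte markers 9.53 to 10.03 in fat. Slides, which hold up to 4 arrays, and scan days followed the design. All 8-week arrays of a tissue were scanned on other days than its 35-week arrays, so that age and scan day cannot be told apart. Genotype and slide cannot be told apart at 35 weeks, or in liver at 8 weeks.

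Fat was the tissue in which the proliferation genes were measured best. Mki67, Ccna2, Ccnb2, Birc5, Cdc20, Mcm5 and Rrm2 were well above background on all 14 arrays of each tissue. Top2a was so on 13 arrays of fat, 5 of liver and 3 of muscle, Aurkb on 12, 0 and 1, and Ccnb1 on 9, 2 and 0. Testing a gene in a tissue required 3 or more arrays of some group with its probe well above background, which left all 10 genes in fat, 8 in liver (not Ccnb1 or Aurkb) and 7 in muscle (not Top2a, Ccnb1 or Aurkb). Top2a passed in liver only through the Akt1+/- mice of 35 weeks, and Ccnb1 passed in fat only through the 8-week mice.

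In the fit over all 42 arrays, 9 of the 10 genes were lower in muscle than in fat and Rrm2 was higher. All 10 were past the threshold of an adjusted p below 0.05. Of all 19657 genes tested, 87.7% were called in that comparison, so that the call by itself sets the members apart from few genes. Ccnb1 and Aurkb entered this fit only through fat, where they were high, so that their calls are no support for a difference from fat. Top2a entered through fat and the Akt1+/- livers of 35 weeks and through no muscle group. Its call between muscle and fat is therefore no support either. Mki67 had a mean level of −0.89 ± 0.63 in fat, −1.95 ± 0.68 in liver and −3.06 ± 1.18 in muscle (SD, n = 14 each). The muscle minus fat difference was therefore −2.16 ± 0.23 (SE) on the log2 scale (limma, adjusted p = 2.37e-10). It ranged from −2.77 to −1.10 over the alternatives run, and stayed called. Cdc20 had −0.32 ± 0.36 in fat, −1.997 ± 0.912 in liver and −1.88 ± 0.49 in muscle, and its levels in liver and muscle differed by −0.12 ± 0.18 (SE, adjusted p = 0.54). Birc5 had −0.93 ± 0.66 in fat, −1.09 ± 0.59 in liver and −2.70 ± 0.54 in muscle, with a liver minus fat difference of −0.18 ± 0.15 (adjusted p = 0.279). For Birc5 and Ccnb2, fat and liver were thus not separated and muscle lay below both. Between liver and fat 8 members were called, of which 7 were lower in liver, against 86.2% of all genes called. These 7 include the dim Top2a, Ccnb1 and Aurkb. Between liver and muscle 7 were called, all higher in liver, against 85.8%. Ccnb1 is among them, although it was well above background on only 2 liver arrays and 0 muscle arrays.

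Rrm2 was the 1 member with its highest level in liver and its lowest in fat. Liver had a level of −2.13 ± 0.44, muscle of −3.94 ± 0.66 and fat of −4.81 ± 0.52 (SD, n = 14 each). Liver exceeded fat by 2.59 ± 0.14 (SE, adjusted p = 2.95e-18) and muscle by 1.69 ± 0.14 (adjusted p = 2.59e-13), and muscle exceeded fat by 0.90 ± 0.14 (adjusted p = 3.73e-07). The sizes are not settled. Over the alternatives run they ranged, in the same order, from 0.83 to 3.22, from 0.64 to 2.51 and from 0.19 to 1.09, and all stayed called. The lowest liver array, at −2.79, was above the highest muscle array, at −2.97, and above the highest fat array, at −3.74. Mcm5, the other S phase gene, kept the common order, with −1.36 ± 0.24 in fat, −2.15 ± 0.28 in liver and −2.83 ± 0.26 in muscle. For the dimmest genes the size of a tissue difference is only bounded. Aurkb was not well above background on any liver array. Set against the detection limit there, it was at least 1.07-fold higher in fat, a bound with no test. Ccnb1 was not well above background on any muscle array, and no fold is given for it.

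**Figure D1:**
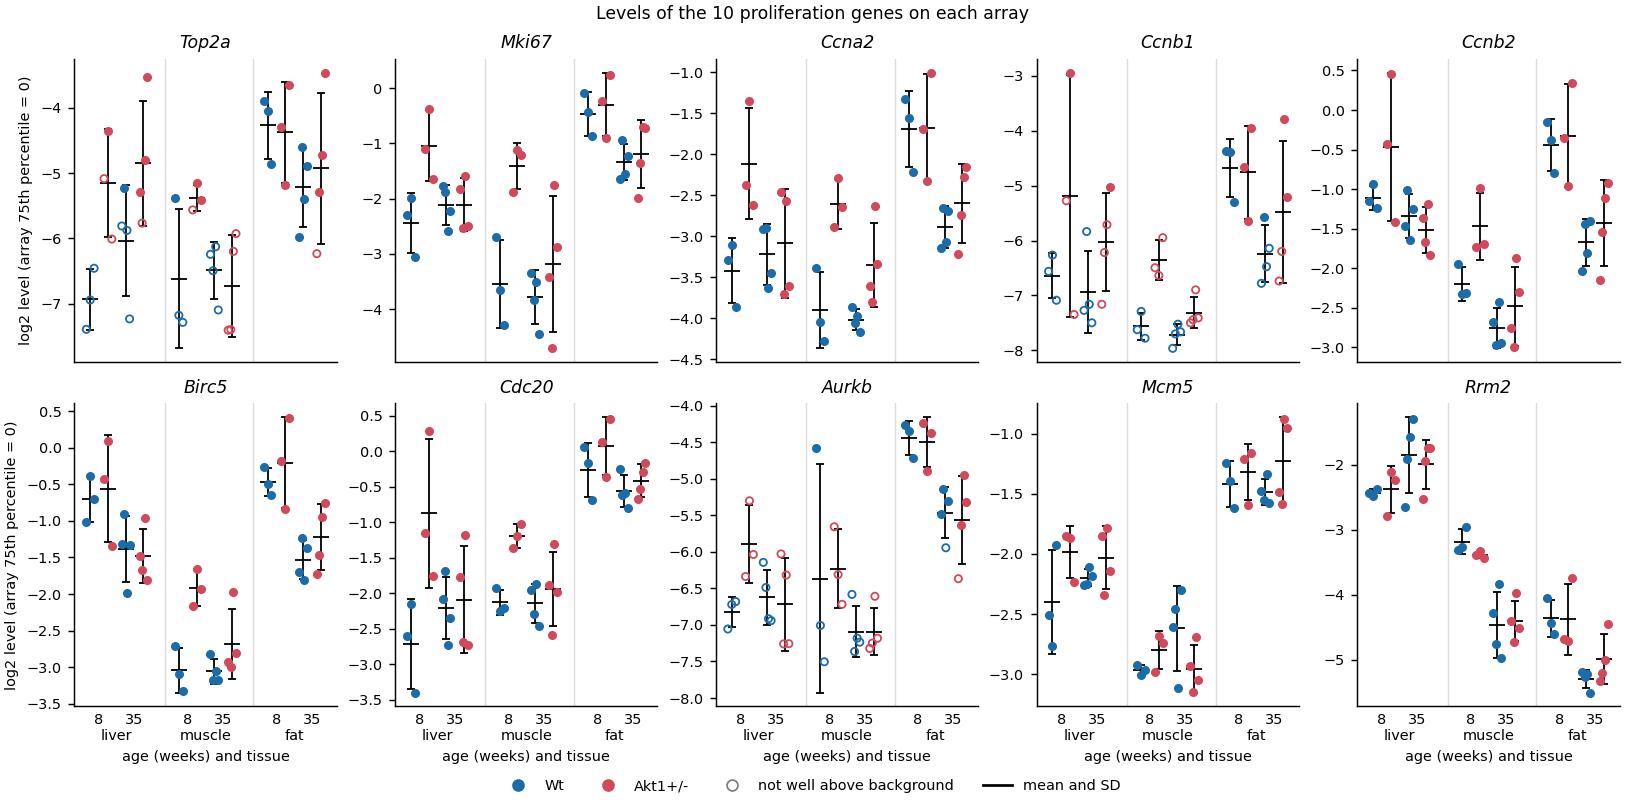
Level of each of the 10 genes (log2, 75th percentile of the array at 0, vertical axis with its own range for each gene) on each of the 42 arrays, by tissue and age, with blue points for Wt, red for Akt1+/-, open points for arrays not well above background, and bars for the mean and SD of a group of 3 or 4 arrays. Most genes are highest in fat and lower in fat at 35 than at 8 weeks, Rrm2 is highest in liver, and Mcm5 varies little with age.

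The clearest difference with age was in fat. Of the 10 genes, Aurkb, Birc5, Ccna2, Ccnb2, Mki67 and Rrm2 were lower at 35 than at 8 weeks over both genotypes (adjusted p below 0.05), and 0 were higher, while 9.09% of the 18219 genes tested were called lower. The median difference of the 10 was −0.96, and that of all genes tested was 0.01. The 10 include Ccnb1, which entered the test only through the 8-week mice, where it was high. Its value is therefore no support for a decline. Ccnb2 had levels of −0.15, −0.38 and −0.80 in Wt and −0.36, −0.96 and 0.35 in Akt1+/- fat at 8 weeks. At 35 weeks they were −2.03, −1.45, −1.81 and −1.40 in Wt and −2.15, −1.55, −1.11 and −0.92 in Akt1+/- fat. The ages overlapped by 1 array, the Akt1+/- replicate 4 of 35 weeks, and the difference was −1.17 ± 0.23 (SE, adjusted p = 0.00587), or 0.445-fold.

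Aurkb, the kinase that corrects the attachment of chromosomes to the spindle, was the 1 member whose ages did not overlap in fat, where 1.86% of all genes were lower at 35 weeks without overlap. Its levels were −4.27, −4.35 and −4.71 in Wt and −4.24, −4.89 and −4.37 in Akt1+/- fat at 8 weeks. At 35 weeks they were −5.48, −5.14, −5.94 and −5.30 in Wt and −6.37, −5.64, −4.95 and −5.32 in Akt1+/- fat, where 1 array of each genotype was not well above background. The difference was −1.04 ± 0.21 (adjusted p = 0.00622). Its partner Birc5 (survivin) went from −0.26, −0.49 and −0.64 in Wt and −0.19, −0.84 and 0.41 in Akt1+/- fat at 8 weeks to −1.70, −1.24, −1.81 and −1.37 and −1.72, −1.46, −0.95 and −0.75, a difference of −1.04 ± 0.20 (adjusted p = 0.00534). Ccna2 fell by 1.06 on the log2 scale (SE 0.23, adjusted p = 0.00899), Mki67 by 0.89 (SE 0.24, adjusted p = 0.0254) and Rrm2 by 0.77 (SE 0.18, adjusted p = 0.0114).

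The other members did not pass. Cdc20 differed by −0.39 ± 0.16 (adjusted p = 0.0972), Ccnb1 by −1.14 ± 0.43 (adjusted p = 0.085) and Top2a by −0.75 ± 0.41 (adjusted p = 0.212). Ccnb1 was well above background on all 8-week fat arrays, but on only 1 of 4 Wt and 2 of 4 Akt1+/- arrays at 35 weeks. Mcm5 differed by 0.01 ± 0.13, with levels between −1.62 and −0.88 in all 14 arrays. Within Wt fat alone Ccna2, Ccnb2, Birc5, Aurkb and Rrm2 were called lower (6.49% of all genes) and within Akt1+/- fat Birc5 and Aurkb (4.41%). The interaction of genotype and age was called for 0 of the 10 (1.48% of all genes), so that no difference between the genotypes in the decline was shown. These counts within 1 genotype rest on single arrays, since the count of 5 in Wt became 0 without the Wt replicate 1 or 2 of 8 weeks or the Wt replicate 1 or 3 of 35 weeks. In Akt1+/- fat the count of 2 was 0 or 1 without 13 of the 14 arrays, each left out in turn. The count of 6 over both genotypes stayed between 5 and 7 without any 1 array, although Mki67 lost its call without the replicate 1 or 2 of Wt or the replicate 1 or 3 of Akt1+/- fat at 8 weeks. With normexp background correction (offset 50) and quantile normalization together, most member differences were smaller. Ccna2 differed by −0.51 (adjusted p = 0.0162), Aurkb differed by −0.09 (adjusted p = 0.0637) and Rrm2 by −0.08 (adjusted p = 0.189), and 4 members were called.

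Markers of other cells in fat moved in different directions with age. The summed level of the 5 macrophage markers was 4.72 to 5.05 in Wt and 5.23 to 5.39 in Akt1+/- fat at 8 weeks, and 4.76 to 4.87 and 4.90 to 4.99 at 35 weeks, and 2 of the 5 were called lower with age. The 5 fibroblast and stromal markers had 8.51 to 8.99 at 8 weeks and 8.22 to 8.71 at 35 weeks, and 1 of the 3 tested was called lower. Erythroid markers, with 2 of the 7 tested and 1 of them called lower, had 1.58 to 3.16 and 0.35 to 2.08. The T cell markers, with 5 of 5 tested and 2 called higher, went the other way, from −0.82 to −0.28 at 8 weeks to −0.63 to 0.55 at 35 weeks. Over all 18219 genes tested in fat, 1657 were called lower and 1832 higher with age. The part of these cells in the decline was not tested.

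In muscle the age difference was narrower. Ccnb2 and Rrm2 were lower at 35 weeks and 0 members were higher, out of 7 tested, against 14.4% of the 16975 genes called lower. Rrm2 had −3.32, −3.26 and −2.97 in Wt and −3.39, −3.33 and −3.43 in Akt1+/- muscle at 8 weeks. At 35 weeks it had −4.28, −4.75, −3.84 and −4.97 in Wt and −4.40, −4.72, −3.98 and −4.51 in Akt1+/- muscle. The ages did not overlap, as for 4.36% of all genes lower at 35 weeks, and the difference was −1.15 ± 0.17 (SE, adjusted p = 0.000423). With normexp and quantile normalization it was −0.27 and stayed past the threshold, so that the size depends on the processing. Ccnb2 differed by −0.79 ± 0.19 (adjusted p = 0.00754), or −0.44 with that processing. The other members gave −1.01 ± 0.41 for Mki67 (adjusted p = 0.0765), −0.42 ± 0.19 for Ccna2 (adjusted p = 0.107), −0.39 ± 0.17 for Birc5 (adjusted p = 0.0914), −0.38 ± 0.17 for Cdc20 (adjusted p = 0.11) and 0.09 ± 0.12 for Mcm5. The dimmer second probe of Mki67, well above background on 6 of 14 muscle arrays, gave −0.29.

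One array set the muscle count. The Akt1+/- replicate 3 of 35 weeks was the highest of its group for every one of the 7 members tested, with −1.75 for Mki67 where the other 3 arrays had −3.43, −4.71 and −2.88. Without it 6 of the 7 members were called lower, all but Mcm5, with Mki67 at −1.25 (adjusted p = 0.0161) and Ccna2 at −0.54 (adjusted p = 0.018). Within Akt1+/- muscle Birc5, Ccnb2 and Rrm2 were called lower (5.2% of all genes) and within Wt muscle Rrm2 (8.95%). Without that array the Akt1+/- count was 6, and without the Akt1+/- replicate 2 of 8 weeks or replicate 1 or 2 of 35 weeks it was 1. The Wt count was 2 without the Wt replicate 3 of 35 weeks. The interaction was called for 0 members and for 0% of all genes, with 1 member, Birc5, below an unadjusted p of 0.05. Stromal markers moved with age in muscle too, with 2 of the 3 fibroblast and stromal genes tested called lower and a summed level of 7.75 to 8.07 at 8 weeks and 7.43 to 7.68 at 35 weeks. Adipocyte markers went from 2.81 to 4.78 at 8 weeks to 4.09 to 5.35 at 35 weeks, with 2 of 4 called higher. Of the epithelial markers 2 of 3 were called higher, and 1 of 5 macrophage and 1 of 3 erythroid markers were called lower. Over all 16975 genes tested in muscle, 2444 were called lower and 2780 higher with age. The part of these cells in the result was not tested.

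In liver Birc5 was the 1 member called lower at 35 weeks, out of 8 tested, against 14.7% of all 17362 genes called lower. It had −1.02, −0.39 and −0.70 in Wt and −0.43, 0.10 and −1.34 in Akt1+/- liver at 8 weeks, and −1.32, −0.90, −1.98 and −1.33 and −1.48, −1.67, −0.96 and −1.81 at 35 weeks. The ages overlapped and the difference was −0.80 ± 0.23 (SE, adjusted p = 0.0194). Ccnb2 gave −0.64 ± 0.23 (adjusted p = 0.0513), and Rrm2 gave 0.48 ± 0.20 (adjusted p = 0.0866). The call of Birc5 was lost with scan day as a random block (adjusted p = 0.108) and without the Wt replicate 2 of 8 weeks. Ccnb2 was called as well without the Akt1+/- replicate 3 of 8 weeks, and Rrm2 was called higher without the replicate 1 of either genotype at 35 weeks. Scaling to the median of each array in place of the 75th percentile moved all age differences in liver by −0.20, called Ccnb2 too, and changed the share of higher genes among all calls from 57.5 to 24.5%. Within Akt1+/- liver the 1 member called was Ccnb2, at −1.05 ± 0.33 (4.5% of all genes called lower), and within Wt liver 0 of 8 were called (10.8%), with 0 below an unadjusted p of 0.05 either. The count in Akt1+/- liver was 0 without 11 of the 14 arrays, each left out in turn, and 3 without the Akt1+/- replicate 3 of 8 weeks. The Wt count was 1 without the Wt replicate 1 of 35 weeks. Among other cells, 3 of 4 B cell markers and 2 of 5 macrophage markers were called higher in older liver, with summed levels of −0.58 to 0.71 and 3.53 to 4.43 at 8 weeks and 0.04 to 1.28 and 3.93 to 4.64 at 35 weeks. Of the 3 fibroblast and stromal markers 2 were called lower and 1 higher. Over all 17362 genes tested in liver, 2555 were called lower and 3457 higher with age. The part of these other cells in the result was not tested.

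The age difference of Rrm2 depended on the tissue. It was higher in liver than in fat by 1.26 ± 0.28 (SE, adjusted p = 0.00167, 16.1% of all genes called) and higher in liver than in muscle by 1.63 ± 0.28 (adjusted p = 0.000103, 18.6%). Under median scaling all differences of these 2 comparisons shifted by −0.18 and −0.15, the share of higher genes among the calls went from 61.5 to 25.1% and from 53 to 22.7%, and Rrm2 remained called. With normexp and quantile normalization the differences of Rrm2 were 0.33 (adjusted p = 0.0389) and 0.52, the second also past the threshold. Rrm2 was the 1 member called in either comparison. Between muscle and fat 0 members were called (16.3%), and the difference of Rrm2 was −0.38 ± 0.28. Leaving out the Akt1+/- replicate 4 of 35-week fat called 2 members in the first comparison. Rrm2 was thus lower in older fat and muscle, and in liver, where its level was highest, it was not.

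**Figure D2:**
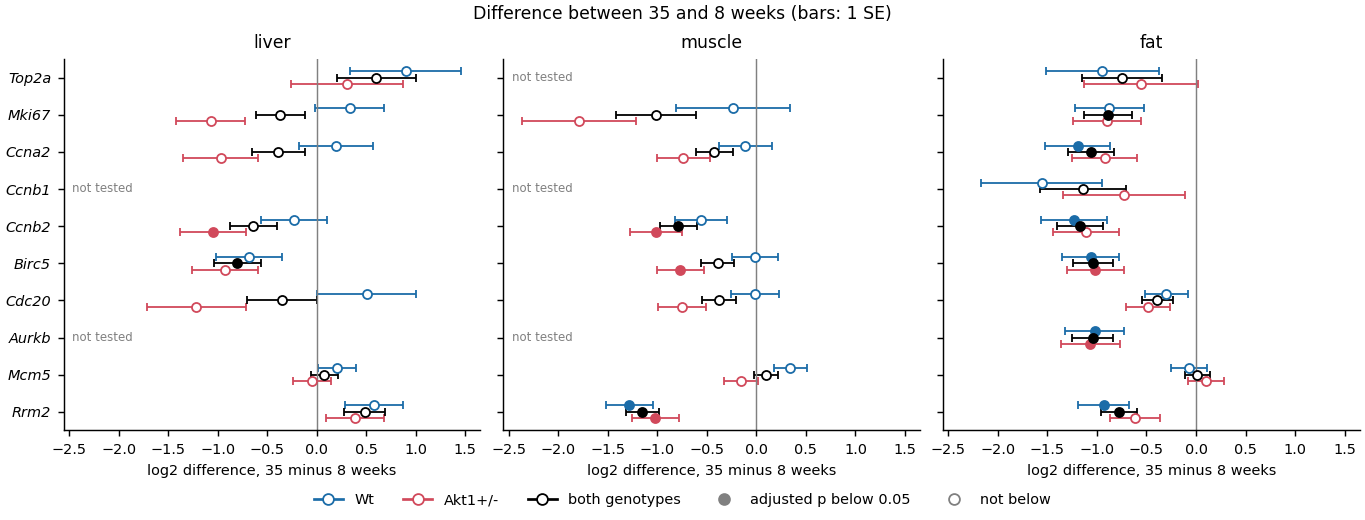
Difference between 35 and 8 weeks for each gene (log2, horizontal axis) in liver, muscle and fat, in Wt (blue), Akt1+/- (red) and both genotypes averaged (black), with bars of 1 SE, filled points where the adjusted p is below 0.05 and open points otherwise. In fat 6 of 10 black points are filled and lie left of 0, Rrm2 is left of 0 in muscle and fat and right of 0 in liver, and Mcm5 lies near 0 in all tissues.

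Genotype was examined at each age. In muscle at 8 weeks every Akt1+/- array was above every Wt array for Mki67, Ccna2, Ccnb2, Birc5 and Cdc20, 5 of the 7 members tested, while this held for 8.43% of all genes. Mki67 had −2.70, −3.66 and −4.29 in Wt and −1.88, −1.13 and −1.20 in Akt1+/- muscle, a difference of 2.15 ± 0.61 (SE), or 4.43-fold. Its dimmer second probe, well above background on 6 of 14 muscle arrays, differed by 3.59, so that the size is not settled. Ccna2 had −3.38, −4.05 and −4.27 against −2.89, −2.29 and −2.64, a difference of 1.29 ± 0.29. Cdc20, with −1.93, −2.25 and −2.20 against −1.36, −1.19 and −1.02, differed by 0.94 ± 0.26. Birc5 differed by 1.13 ± 0.25 and Ccnb2 by 0.72 ± 0.28. After adjustment over all genes 0 members were called, as was 0% of the array, with adjusted p from 0.122 for Ccna2 and Birc5 to 0.246 for Ccnb2 by limma, although 5 members were below an unadjusted p of 0.05. With normexp and quantile normalization Mki67 and Ccna2 were called, by smaller differences of 1.06 (adjusted p = 0.0385) and 0.48 (adjusted p = 0.0362). Rrm2 stood apart, with all 3 Akt1+/- arrays below the Wt arrays, as for 14.8% of all genes, by 0.20.

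Slide could be held fixed for part of this comparison. On the slide that held the 3 Wt arrays and 1 Akt1+/- array of 8-week muscle, the Akt1+/- array was above all Wt arrays for the same 5 genes, by 1.67 for Mki67, 1.01 for Ccna2, 0.88 for Birc5, 0.76 for Cdc20 and 0.46 for Ccnb2. That order was fixed in advance by the comparison above, which holds the same arrays, so that it adds no support. With n = 1 on 1 side the values have no test. The Akt1+/- replicates 2 and 3, which had the highest levels of these 5 genes, were on another slide without Wt muscle. Markers of other cells in 8-week muscle did not all go the same way. The 5 endothelial markers summed to 3.57 to 3.76 in Wt and 4.03 to 4.30 in Akt1+/- muscle, and the 5 macrophage markers to 0.92 to 1.97 and 1.90 to 2.40, with all 5 of each list detected and 0 called. Erythroid markers lay lower, with 0.57 to 1.28 in Wt and 0.09 to 0.58 in Akt1+/- muscle. Fibroblast and stromal markers overlapped. Hepatocyte markers reached 5.37 in 1 Akt1+/- array and at most 1.85 in Wt. Their part in the difference was not tested.

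At 35 weeks the genotypes overlapped in muscle for all 7 members tested but Ccna2, whose Akt1+/- arrays, at −3.61, −3.80, −2.63 and −3.34, all exceeded the Wt arrays, at −3.86, −4.06, −3.97 and −4.17 (3.73% of all genes did so). The differences were 0.67 ± 0.25 for Ccna2 (adjusted p = 0.433), 0.60 ± 0.53 for Mki67 and −0.34 ± 0.16 for Mcm5, and 0 members were called (0.0884% of all genes). Averaged over both ages, Ccna2 differed by 0.98 ± 0.19 (adjusted p = 0.084), Birc5 by 0.75 ± 0.17 (adjusted p = 0.101) and Mki67 by 1.37 ± 0.41 (adjusted p = 0.151). Again 0 members and 0% of all genes were called, while 5 members were below an unadjusted p of 0.05 by limma. By the methods' two-way test Ccna2 and Birc5 were below its unadjusted threshold of 0.01, and 0 members passed after adjustment.

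In liver the 8-week Akt1+/- arrays were all above the Wt arrays for Mki67, Ccna2 and Cdc20, while this held for 10.9% of all genes. The values of Top2a did not overlap either, but only 1 of those 6 arrays was well above background for it. Cdc20 had −2.60, −2.15 and −3.40 in Wt and −1.15, 0.28 and −1.75 in Akt1+/- liver, a difference of 1.84 ± 0.53 (SE, adjusted p = 0.0867). Mki67 had −2.30, −1.997 and −3.05 against −1.10, −0.37 and −1.65, a difference of 1.41 ± 0.37 (adjusted p = 0.0644), and Ccna2 differed by 1.30 ± 0.40 (adjusted p = 0.103). The Akt1+/- replicate 2 was the highest of its group for all of these. It was also the 1 array of the 8-week livers on which Ccnb1 was well above background, at −2.95. Its slide and scan day differed from those of the other 8-week livers. The same slide held the Akt1+/- replicates 2 and 3 of 8-week muscle, the highest there for Mki67 and Ccna2. The Akt1+/- liver replicates 1 and 3, on a further slide, were also above the Wt livers for Mki67, Ccna2 and Cdc20. The part of the slide in these levels was not tested. Birc5, by contrast, differed by 0.14 ± 0.35 and Rrm2 by 0.06 ± 0.31. After adjustment 0 members were called (2.18% of all genes), and 4, the dim Top2a among them, were below an unadjusted p of 0.05.

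At 35 weeks the genotype differences in liver were 0.01 ± 0.32 for Mki67, 0.14 ± 0.35 for Ccna2 and 0.12 ± 0.46 for Cdc20, and 0 members were called (3.29%). The interaction was −1.40 ± 0.49 for Mki67 (adjusted p = 0.227) and −1.72 ± 0.71 for Cdc20 (adjusted p = 0.301), and it was called for 0 of 8 members (0.501%), with 3 below an unadjusted p of 0.05. A dependence of the genotype difference on age was therefore not shown. Averaged over both ages, Top2a was the 1 member with an adjusted p below 0.05, at 0.0486, higher in Akt1+/- liver (3.44% of all genes). Since Top2a entered the test only through the Akt1+/- livers of 35 weeks, where it was high, this call is no support for a difference. It was well above background on 0 of 3 Wt and 1 of 3 Akt1+/- arrays at 8 weeks and on 1 of 4 and 3 of 4 at 35 weeks, so that no fold is given at 8 weeks, and the call was lost without any 1 of 12 arrays of the 14. It stood only without the Akt1+/- replicate 3 of 8 weeks or replicate 2 of 35 weeks. Marker sums differed in these livers as well. At 8 weeks macrophage markers summed to 3.53 to 3.96 in Wt and 4.14 to 4.43 in Akt1+/- liver, and B cell markers to −0.58 to 0.02 and 0.39 to 0.71. Hepatocyte and erythroid sums were lower in Akt1+/- liver. The adipocyte list summed to 2.01 to 2.64 and 3.94 to 6.54, but of its 5 genes only Cidec and Lipe were detected. Adipoq, Plin1 and Lep were not, so that this sum is no measure of adipocytes. The part of other cells in the difference was not tested.

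In fat no genotype difference was called in any member. At 8 weeks 0 of 10 members were higher in all Akt1+/- arrays (11.9% of all genes were), Mki67 differed by 0.17 ± 0.37 (SE) and Ccnb2 by 0.12 ± 0.35, and 0 members were called (1.83% of all genes). At 35 weeks (1.69%) and over both ages (0.774%) 0 were called too, with 0 below an unadjusted p of 0.05 in each of these comparisons. On the slide that held 3 Akt1+/- arrays and 1 Wt array of 8-week fat, the mean of the Akt1+/- arrays was higher for all 10 members, by 0.21 for Aurkb to 0.75 for Cdc20, and all 3 arrays were above the Wt array for Cdc20 and Mcm5. That Wt array, replicate 3, was the lowest of the 3 Wt arrays of 8-week fat for all 10 members, and the other Wt arrays were on another slide. With 1 Wt array these values have no test and show no genotype difference.

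**Figure D3:**
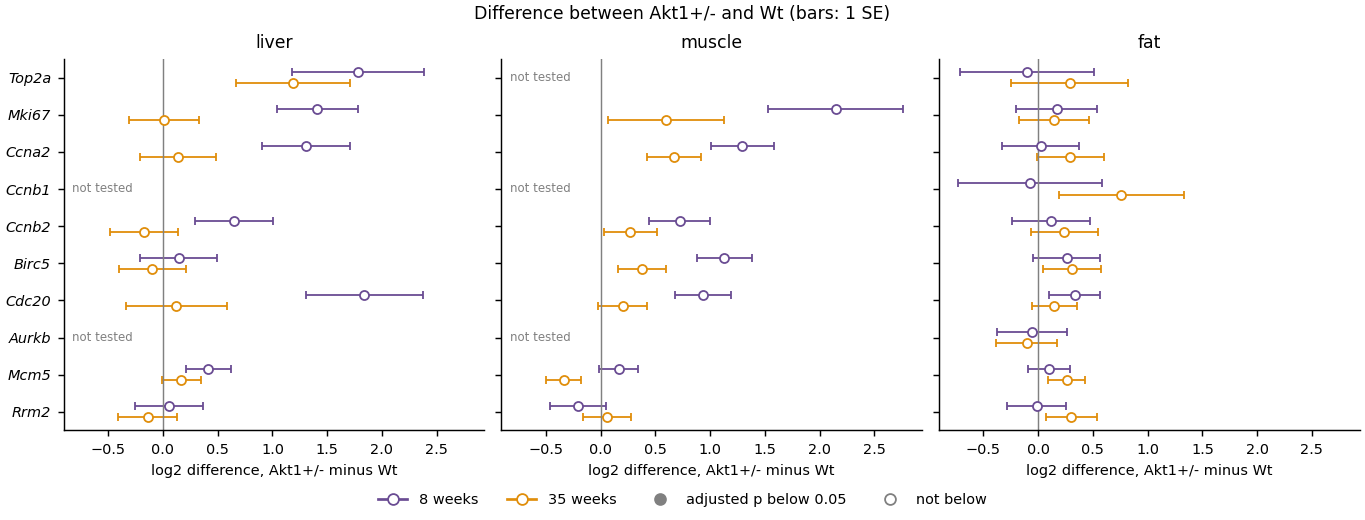
Difference between Akt1+/- and Wt for each gene (log2, horizontal axis) in liver, muscle and fat at 8 weeks (purple) and 35 weeks (orange), with bars of 1 SE. All points are open since 0 of the members had an adjusted p below 0.05, and at 8 weeks Mki67, Ccna2 and Cdc20 lie right of 0 in liver and muscle but near 0 in fat.

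The members varied together between arrays of a group. After the group means were removed, the correlation between pairs of the 10 genes over the 14 fat arrays had a median of 0.76, with a range from 0.39 to 0.98 over 45 pairs. In muscle the median over 21 pairs was 0.73 and in liver over 28 pairs 0.28. In liver Rrm2 had correlations from −0.31 to 0.02 with the other members, whereas Cdc20 reached 0.97 with Mki67. These values share arrays and their scaling, and are given as a description. The genes outside the set whose levels were most like the mean of the tested members, by Pearson correlation over the 14 arrays of a tissue, were in fat Prc1 (0.99), Kif20a (0.99), Tpx2 (0.98), Cenpf (0.97) and Cdca8 (0.97). In muscle they were Cenpe (0.98), Ube2c (0.97), Ect2 (0.97), Prc1 (0.95) and Lxn (0.95), and in liver Prc1 (0.97), Cdca3 (0.94), Ube2c (0.94), Kif20a (0.93) and Cenpe (0.92). Prc1, a microtubule bundler of the mitotic midzone, was thus among them in all tissues, and all but Lxn are in the list of mitosis genes described next.

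Other genes of the cell cycle were followed as lists of mitosis (59 genes), S phase (32), G1 cyclins and kinases (6) and transcriptional regulators (16). In fat 32 of the 52 mitosis genes tested were lower at 35 weeks and 1 was higher, with a median of −0.64, beside 9.09% of all genes called lower. Of all 18219 genes tested there, 1832 were called higher. Cep55, which acts in abscission, fell by 1.39 (SE 0.31, adjusted p = 0.0093), Cenpf of the kinetochore by 1.25 (SE 0.29, adjusted p = 0.012) and Spc25 of the Ndc80 complex by 1.24 (SE 0.20, adjusted p = 0.00189), and Pttg1 (securin) rose by 0.38 (SE 0.06, adjusted p = 0.00218). S phase genes did not move as a group, with 1 of 31 lower (Tyms, −0.24), 3 higher (Mcm2, 0.39; Rfc3, 0.29; Mcm3, 0.27) and a median of −0.01. Of the regulators 4 of 13 were lower and 0 higher, among them E2f2 at −0.73, Rbl1 at −0.50 and Tfdp1 at −0.33, and of the G1 genes 0 of 5 were called, with differences from −0.12 to 0.41.

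Older muscle had 16 lower and 2 higher of 43 mitosis genes tested, with a median of −0.42, beside 14.4% of all genes called lower. Of all 16975 genes tested there, 2780 were called higher. The lowest were Cdk1, the kinase the members' cyclins activate, at −1.69 ± 0.24 (adjusted p = 0.000316), Ect2 at −1.25 and Ncapg at −1.23. The higher were Aurka at 0.56 and Pttg1 at 0.16. S phase had 5 lower and 2 higher of 30, with a median of −0.05 (Uhrf1 at −0.58, Gins2 at −0.48 and Ccne1 at −0.37 lower, Pold1 at 0.21 and Rfc4 at 0.19 higher). The regulators had 3 lower of 13 (E2f1 at −0.68, Lin54 at −0.42, Rbl1 at −0.32), and Mybl2, which drives mitotic genes, was higher by 0.91 ± 0.13 (adjusted p = 0.000341). Ccnd3 was the 1 of 5 G1 genes called, at −0.60.

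In liver 7 of 43 mitosis genes were lower and 0 higher, a share near the 14.7% of all genes called lower, with a median of −0.29. The lowest were Cdk1 at −1.23, Nek2 at −0.87 and Bub1b at −0.86. S phase had 4 lower and 6 higher of 28 (Cdc45 at −1.01 and Chaf1a at −0.87 the lowest, Mcm10 at 0.60, Mcm2 at 0.57 and Rfc3 at 0.56 the highest). Of all 17362 genes tested, 2555 were called lower and 3457 higher, so that these S phase counts lie near the shares of all genes. The regulators had 3 lower (Rbl1 at −0.56, Tfdp1 at −0.50 and Rbl2 at −0.39) and Mybl2 higher at 0.42, and the G1 genes Ccnd1 and Ccnd2 were higher by 0.84 and 0.20. The median over all genes tested, for comparison, was 0.02 (liver), 0.00 (muscle) and 0.01 (fat). Under median scaling the liver values lie 0.20 lower.

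For genotype, the lists had calls only in liver among the comparisons averaged over both ages. There 5 of 43 mitosis genes were higher in Akt1+/- mice (Cenpf, Ncaph, Hmgb2, Racgap1 and Kif22, from 1.22 to 0.46), 4 of 28 S phase genes (Mcm2, Cdt1, Gins2 and Rrm1) and Ccnd1 of the G1 genes, with 0 lower in any list and 3.44% of all genes called higher. Of the members, Top2a alone was called in this comparison, and under 7 of the processing alternatives 0 members were. The count over all genes, 1012, ranged from 232 to 2890 under the alternatives other than leaving out an array. The list genes named here were not followed through the alternatives. These genes are named because they are the few that passed, and were picked after their values were seen. In muscle and fat 0 genes of the 4 lists were called for the averaged genotype difference. At 8 weeks the mitosis list had a median of 0.73 in liver, 0.33 in muscle and −0.07 in fat, beside −0.01, −0.04 and −0.03 for all genes tested.

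**Figure D4:**
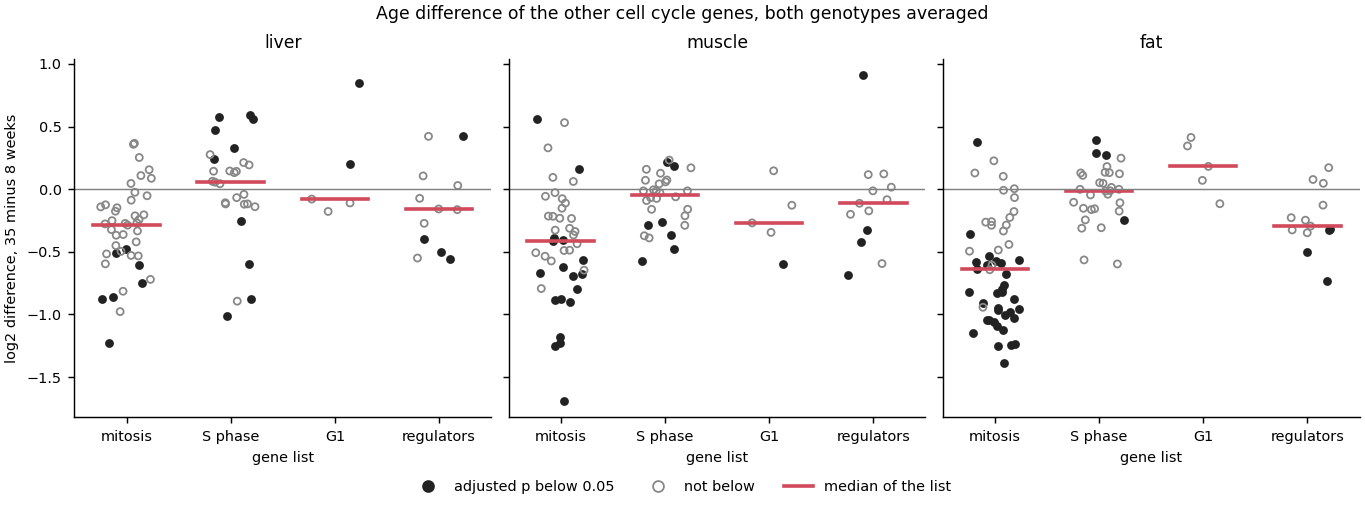
Difference between 35 and 8 weeks over both genotypes (log2, vertical axis) for each tested gene of the mitosis, S phase, G1 and regulator lists (horizontal axis) in liver, muscle and fat, with filled points where the adjusted p is below 0.05, open points otherwise, and red lines at the median of a list. The median of the mitosis genes is below 0 in each tissue and −0.64 in fat, whereas the S phase medians lie near 0.

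Promoters were compared because mitosis genes and S phase genes are known to be controlled through different elements, the CHR and CCAAT boxes of late genes and the E2F sites of early ones. Windows of 300 bases that span the start of the gene (RefSeq, GRCm38.p6) were found for 8 members, all but Ccna2 and Aurkb, and searched on both strands for TTTGAA (CHR), CCAAT, and the E2F forms TTTCGCGC, TTTGGCGC and TTTCCCGC. TTTGAA was in the windows of 4 of the 8 (Top2a, Mki67, Ccnb2 and Cdc20), in 69.1% of 55 windows of mitosis genes, 9.68% of 31 windows of S phase genes and 17.9% of all 32851 windows. CCAAT was in 7 of the 8 (not Birc5), in 72.7, 51.6 and 37.4% of those sets. An E2F form was in 1 of the 8, Mcm5, and in 10.9, 32.3 and 1.84%. The windows of genes that were lower in older fat (Ccnb2, chr9:70421505-70421804, minus strand; Mki67, chr7:135716330-135716629, minus; Birc5, chr11:117848987-117849286, plus; Rrm2, chr12:24708004-24708303, plus) are shown beside that of Mcm5 (chr8:75109259-75109558, plus), which was not, with the matches in capitals. In Mcm5 the first run of capitals is 2 overlapping E2F forms on opposite strands.
Ccnb2: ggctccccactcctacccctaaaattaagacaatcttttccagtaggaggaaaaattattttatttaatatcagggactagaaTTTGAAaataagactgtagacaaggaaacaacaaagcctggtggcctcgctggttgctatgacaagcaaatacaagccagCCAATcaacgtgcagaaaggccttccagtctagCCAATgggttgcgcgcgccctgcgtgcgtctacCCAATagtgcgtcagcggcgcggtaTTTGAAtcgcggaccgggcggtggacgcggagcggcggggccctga
Mki67: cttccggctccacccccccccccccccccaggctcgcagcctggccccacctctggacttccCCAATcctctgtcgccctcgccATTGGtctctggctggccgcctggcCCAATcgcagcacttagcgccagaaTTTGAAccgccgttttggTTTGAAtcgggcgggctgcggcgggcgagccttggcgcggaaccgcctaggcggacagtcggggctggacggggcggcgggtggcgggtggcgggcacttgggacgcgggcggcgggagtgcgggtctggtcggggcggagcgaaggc
Birc5: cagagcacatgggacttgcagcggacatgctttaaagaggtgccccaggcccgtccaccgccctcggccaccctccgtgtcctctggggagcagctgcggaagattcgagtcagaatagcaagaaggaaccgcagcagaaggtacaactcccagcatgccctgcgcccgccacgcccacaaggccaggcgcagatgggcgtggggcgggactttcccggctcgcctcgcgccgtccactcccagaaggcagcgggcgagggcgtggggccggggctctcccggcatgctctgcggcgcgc
Rrm2: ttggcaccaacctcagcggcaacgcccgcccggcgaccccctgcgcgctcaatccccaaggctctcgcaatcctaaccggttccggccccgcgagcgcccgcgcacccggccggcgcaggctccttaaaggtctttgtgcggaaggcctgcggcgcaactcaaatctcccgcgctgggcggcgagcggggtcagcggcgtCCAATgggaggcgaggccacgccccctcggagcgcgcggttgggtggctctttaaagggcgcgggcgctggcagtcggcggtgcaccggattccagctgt
Mcm5: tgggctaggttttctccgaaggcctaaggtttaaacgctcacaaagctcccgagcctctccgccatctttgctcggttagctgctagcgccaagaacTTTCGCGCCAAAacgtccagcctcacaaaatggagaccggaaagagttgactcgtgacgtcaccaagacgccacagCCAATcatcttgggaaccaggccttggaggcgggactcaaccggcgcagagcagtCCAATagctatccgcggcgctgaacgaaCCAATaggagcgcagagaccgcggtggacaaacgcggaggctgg

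Within the mitosis list, 24 of the 31 tested genes with TTTGAA in a window were lower in older fat and 0 were higher, with a median of −0.82, against 4 lower and 1 higher of 14 genes without it, with a median of −0.27, beside the 9.09% of all genes called lower. In muscle the counts were 10 lower of 25 with it and 4 of 12 without, with medians of −0.51 and −0.28 (14.4% of all genes), and in liver 5 of 24 and 1 of 13, with medians of −0.36 and −0.27 (14.7%). A match of letters is a description, and neither Birc5 nor Rrm2, which were lower in older fat, had TTTGAA in its window.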

How the data were processed

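RNA of 42 samples was hybridised to Agilent whole mouse genome arrays (design on mm8, Cy3, one colour). Per the file headers the authors extracted spot intensity with Feature Extraction 9.5.3.1 (the submitters' processing notes give 9.1). The deposited processed intensity is background-subtracted and not scaled between arrays. The deposited table of the series holds log2 values that correlate at 1.0 with it, scaled by the authors to the 75th percentile. No pair of arrays held identical values, and all columns were mapped.

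Here log2 processed intensity minus the 75th percentile of the array was used. Probes were named by accession (24355), current (6304) or older symbol (2425), and 8075 kept the array name. Probes with an outlier flag in a tissue were left out (286 in liver, 326 in muscle, 236 in fat), and the probe with the highest mean over the 42 arrays stood for a gene. Probes well above background on 3 or more arrays of some group were fitted with limma 3.58.1 (R 4.3.3), 1 mean per group, for each tissue and, for tissue comparisons, over all arrays, with Benjamini-Hochberg adjusted p below 0.05. The calls were tested on simulated data. The labels tie no array to an animal, so p-values measure only the spread between these arrays, which may be partly technical. Bounds for dim probes use the lowest signal well above background of each array.

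Members and gene lists were chosen with earlier results of these data known. Named list genes are the 3 highest and 3 lowest age differences past the threshold in each tissue, of which 1 is not reported here. Marker lists gave summed levels. Comparisons of age differences between tissues, within-slide values and scan day in the tissue comparisons were added after the data were seen.

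Same-numbered arrays of the genotypes deviated together at 35 weeks (correlations from 0.106 to 0.523 in 12 pairs, where the number is also the position on the slide) but not at 8 weeks (−0.196 to 0.0704 in 9). Alternatives were background correction and quantile normalization (normexp, offset 50), median scaling, the authors' values, filters, probe choice, the methods' two-way test, replicate, slide and scan-day blocks, 1 fit over all arrays, and each array left out.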

Additional observations from a re-analysis of the deposited data

Results flagged for a closer look

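The age difference of Rrm2 differed between tissues by the test of that difference, at 1.26 for liver minus fat (log2, adjusted p = 0.00167 by limma) and 1.63 for liver minus muscle (adjusted p = 0.000103). Each was past the threshold in all 53 alternatives run for it, with adjusted p up to 0.0389 and 0.0243, but the values fell to 0.33 and 0.52 with normexp and quantile normalization. Of 50 groups of 4 arrays examined, 0 had a highest or lowest array far enough from the others to pass Dixon's criterion, which chance meets in about 5% of groups.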

How the results depend on the processing

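Of 97 member differences with an unadjusted p below 0.05, 97 kept their direction under all alternatives run. They were chosen by that p-value in the main fit, and most alternatives refit the same levels. A change of direction was therefore unlikely in advance. Of the 27 counts of members called, 17 stayed within 1.5 times under every alternative other than leaving out an array. Dim probes (Top2a, Ccnb1, Aurkb) limit what can be measured. Scaling to the median shifted all liver differences by −0.20 for age, −0.12 for genotype, −0.16 for age in Wt, −0.23 for age in Akt1+/- and −0.16 for genotype at 35 weeks. The share of higher genes among the calls then went from 57.5 to 24.5% for liver age, from 59.1 to 16.2% for liver genotype, from 53.6 to 29.7% at 8 weeks, from 94 to 43.7% at 35 weeks, from 51.8 to 25.1% for age in Wt, from 72.8 to 27.3% for age in Akt1+/- and, in muscle, from 64.3 to 50.1% for age in Akt1+/-. With normexp it was 60.2% for age in Akt1+/- liver, 78.6% for genotype in liver at 35 weeks and, from 25.4%, 14.4% for genotype in fat at 35 weeks.

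The count of members called for age in liver, 1, became 2 with normexp and quantile normalization, median scaling, the authors' log2 values, a filter for signal above background on every array, or 1 fit over all 42 arrays, and 0 with scan day as a random block. For genotype in liver, 1 became 0 with normexp and quantile normalization, dim probes kept, a filter for signal above background on every array, the methods' two-way test, the replicate block, slide as a random block or scan day as a random block, while fitting all 42 arrays together gave 2. For genotype at 8 weeks in liver, 0 became 2 in 1 fit over all 42 arrays. For age in Akt1+/- liver, 1 became 5 with median scaling, 4 in 1 fit over all 42 arrays, 2 with the replicate block, and 0 with dim probes kept, the methods' two-way test, slide as a random block or scan day as a random block. For genotype in muscle, 0 became 1 with slide as a random block and 2 when all 42 arrays were fitted together, and at 8 weeks 2 with normexp and quantile normalization and 1 in 1 fit over all 42 arrays. For age in Akt1+/- muscle, 3 became 5 with normexp and quantile normalization, median scaling or slide as a random block. For age in Wt fat, 5 became 3 with normexp and quantile normalization and 0 with dim probes kept or the methods' two-way test. For age in Akt1+/- fat, 2 became 0 with median scaling, dim probes kept or the methods' two-way test, and 1 with a gene's probes averaged or the replicate block. For liver minus fat, 8 became 5 with a filter for signal above background on every array (fewer members tested) or with arrays at 35 weeks only. The cause of the other moves was not tested. The replicate block moved no other count of members by more than 1.5 times.

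Leaving out 1 array at a time, the counts ranged in liver from 0 to 2 for age, 0 to 1 for genotype, 0 to 1 for age in Wt and 0 to 3 for age in Akt1+/-. In muscle they ranged from 2 to 6 for age, 1 to 2 for age in Wt and 1 to 6 for age in Akt1+/-. In fat they ranged from 5 to 7 for age, 0 to 6 for age in Wt and 0 to 2 for age in Akt1+/-. They were 7 to 9 for liver minus muscle, 8 for liver minus fat, 10 for muscle minus fat, and 1 to 2 for the age difference of liver minus fat. Scan day was not run as a block in muscle, where it is the age, or in fat, where it is the slide.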

Other observations

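Cyclin D genes, which act in G1 and are not members, differed between tissues in their values. In liver Ccnd1 was higher at 35 weeks by 0.84 and, at 8 weeks, higher in Akt1+/- than in Wt mice by 1.97 (SE 0.40, adjusted p = 0.0314), while Ccnd3 was lower at 35 weeks in muscle by 0.60. Ccnd1 was picked here after its values were seen.

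Hepatocyte markers were measured in some arrays of muscle and fat, with a summed log2 level of up to 5.37 in 8-week Akt1+/- muscle, 1.98 in 35-week Wt muscle and 3.14 in 8-week Wt fat, beside 10.64 to 11.15 in liver.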
